A study of Homo sapiens with 2 samples.

Results

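The genes described here are the ZNF genes of human embryonic stem cells, the human zinc finger genes whose symbol is ZNF followed by a number. They were compared between H1 cells in which both copies of ZNF263 were knocked out (KO) and wild-type (WT) H1 cells. H1 (WA01) is an established human embryonic stem cell line. The KO was made with Cas9, and the labels give neither the edited part of the gene nor the number of clones. Each genotype was measured in 1 library of single-cell RNA, made by a microwell method that captures polyadenylated RNA on barcoded beads and counts each captured molecule by its unique molecular identifier (UMI). No treatment, culture stage or time is given that would distinguish the libraries, and both came from routine culture.

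A gene was a member if it was listed in both libraries and held at least 50 UMIs in total, over both libraries, in the kept barcodes. A barcode was kept if it had 1000 UMIs or more, 500 genes or more and no more than 20% mitochondrially encoded UMIs. This gave 251 members of 443 ZNF genes listed in both libraries, and 9610 of all 27540 shared genes passed the same minimum. The members were therefore chosen by their summed UMIs, which were not scaled to library size. The kept barcodes held 4650391 UMIs in WT and 3567881 in KO, so WT weighed more in that sum. The minimum was thus passed more easily by genes higher in WT, which favours members lower in KO. How far this shaped the set of members was not tested. Just inside it were ZNF34, ZNF420 and ZNF829 with 50 UMIs, and just outside ZNF10, ZNF112, ZNF26, ZNF440 and ZNF506 with 49. The 192 ZNF genes below the minimum held 1780 UMIs in KO and 2779 in WT, with a median of 24.5 per gene, and 8 of them had 0 UMIs in both libraries. All 251 members are protein coding in the RefSeq gene table.

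C2H2 zinc finger proteins are the largest group of human transcription factors. Each finger folds around a zinc ion and contacts a few bases, and strings of fingers read long DNA sites. Many carry a KRAB domain, which recruits TRIM28 and, with it, histone methylation and heterochromatin proteins, and in stem cells this machinery holds transposable elements silent. Others carry a SCAN domain, through which they pair with one another. ZNF263 carries a SCAN domain and a divergent KRAB domain and binds GC-rich sites in promoters.

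The kept barcodes numbered 2286 in KO and 2935 in WT, with 3567881 and 4650391 UMIs in total and medians of 1289.5 and 1328 UMIs. The libraries shared 20 kept barcodes. As a second count, the UMIs of the shallower barcodes of the same libraries, those with 100 to under 1000 UMIs, were summed. This second count held 32980570 UMIs in KO and 36706664 in WT. These barcodes were not used in choosing members, but they are from the same 2 libraries and are no replicate. All 11 markers of human pluripotent stem cells were at or above 50 UMIs and summed to 5478 CPM (UMIs scaled to a common library size) in KO and 4568 CPM in WT. The largest part of each sum was L1TD1, at 1871 CPM in KO and 1437 CPM in WT. The markers went both ways. SOX2, at 292 CPM in KO and 321 CPM in WT, LIN28A and LIN28B were lower in KO. The other markers had higher levels in KO, with DPPA4 close, at 538 CPM in KO and 527 CPM in WT. Fibroblast markers summed to 61.1 and 55.3 CPM, definitive endoderm markers to 2.52 and 2.80 CPM and blood markers to 0.280 and 0.645 CPM in KO and WT, with PTPRC at 0 in both. With 1 library per genotype there is no test between them. The intervals given are 95% intervals of counting error, and they hold no variation between cells, cultures, clones or libraries.

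Promoters of 5 members that stand at the ends of the comparison, or are its target, are shown here as the 250 bases before the start of the gene (RefSeq, GRCh38.p14, 5′ to 3′ on the strand of the gene). The ZNF263 promoter (chr16:3283241-3283490, plus strand) belongs to the targeted gene, and the ZNF503 promoter (chr10:75401917-75402166, minus strand) and the ZNF483 promoter (chr9:111524929-111525178, plus strand) to the members with the lowest and the highest ratio. Capitals mark the one match to GGGAGGA, a core of the known ZNF263 motif, searched on both strands. The ZNF503 match is on the opposite strand and reads TCCTCCC, and ZNF263 and ZNF483 had no match in this window.
ZNF263: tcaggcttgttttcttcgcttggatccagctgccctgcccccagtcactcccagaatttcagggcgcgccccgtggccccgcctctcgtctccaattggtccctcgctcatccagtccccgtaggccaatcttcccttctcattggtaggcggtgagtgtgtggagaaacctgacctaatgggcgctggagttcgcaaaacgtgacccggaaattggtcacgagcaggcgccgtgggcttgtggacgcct
ZNF503: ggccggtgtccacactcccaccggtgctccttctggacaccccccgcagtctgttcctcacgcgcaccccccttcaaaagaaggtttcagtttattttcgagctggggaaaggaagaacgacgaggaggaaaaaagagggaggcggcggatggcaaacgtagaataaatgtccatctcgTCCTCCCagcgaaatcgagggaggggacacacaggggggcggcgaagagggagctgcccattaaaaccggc
ZNF483: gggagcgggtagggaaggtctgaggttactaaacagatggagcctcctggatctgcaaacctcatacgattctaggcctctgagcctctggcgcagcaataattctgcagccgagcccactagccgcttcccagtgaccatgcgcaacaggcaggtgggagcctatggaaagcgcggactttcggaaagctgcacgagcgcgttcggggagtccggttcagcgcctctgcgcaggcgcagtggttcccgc

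ZNF121 and ZNF561 lie near each other on chromosome 19 and were both higher in KO, and their promoters are shown for their likeness (ZNF121, chr19:9584505-9584754, minus strand; ZNF561, chr19:9621233-9621482, minus strand). In a global alignment 176 of 214 bases aligned without a gap were identical (82.2%). Capitals mark the longest run they share, of 22 bases. It holds TGACGTCA, a palindrome that was found in 482 of 27305 promoters of this length (1.77%). The whole run was found, on either strand, in 3 promoters of the table, those of ZNF121, ZNF561 and ZNF561-AS1. The ZNF561-AS1 window overlaps that of ZNF561 on the other strand, so the run lies at 2 places. ZNF561-AS1 held 65 UMIs in KO and 87 in WT, a log2 ratio, KO over WT, of -0.04 (interval -0.52 to 0.44). Its ratio in the shallower barcodes was 0.10 (interval -0.07 to 0.27). Whether the run bears on the level of any of these genes was not tested.
ZNF121: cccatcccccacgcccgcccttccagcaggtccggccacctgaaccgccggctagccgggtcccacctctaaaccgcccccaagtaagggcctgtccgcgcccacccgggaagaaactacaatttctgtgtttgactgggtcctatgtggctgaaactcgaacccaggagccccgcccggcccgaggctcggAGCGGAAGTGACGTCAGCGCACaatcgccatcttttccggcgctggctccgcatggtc
ZNF561: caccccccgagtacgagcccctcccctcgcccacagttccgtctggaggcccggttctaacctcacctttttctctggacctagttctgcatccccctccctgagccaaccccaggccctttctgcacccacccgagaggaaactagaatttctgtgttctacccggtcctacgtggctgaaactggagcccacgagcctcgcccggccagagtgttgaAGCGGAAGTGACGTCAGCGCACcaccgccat

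Over all promoters of this length, GGGAGGA was found on either strand in 4292 of 27305 (15.7%), and in 1421 of the 7549 promoters (18.8%) of genes at or above the UMI minimum. Of the 220 members with a promoter in the table, 44 held it. It was in 9 of the 34 members lower in KO by 1.5-fold or more and in 0 of the 4 that were higher by that fold. Members with the motif had a median log2 ratio of -0.20 and members without it -0.16. A match describes the letters in the window and not binding.

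ZNF263, the targeted gene (chr16:3283491-3301401), held 27 UMIs in KO and 83 in WT. Its level was 7.57 CPM in KO (interval 4.99 to 11.01) and 17.8 CPM in WT (interval 14.2 to 22.1). Its log2 ratio, KO over WT, was -1.24 (interval -1.92 to -0.60), the fifth lowest of the 251 members. By level in CPM it ranked 208 in KO and 109 in WT. The second count put it at 8.91 CPM in KO (294 UMIs) and 14.7 CPM in WT (538 UMIs), a log2 ratio of -0.72 (interval -0.93 to -0.51). Its RNA was lower but present in KO. Since the edited part is not given, UMIs from outside it could remain, and the level is no check of the KO label. The source of the remaining UMIs was not tested. TIGD7 overlaps ZNF263 on the other strand, held 10 UMIs in KO and 19 in WT, and cannot be told apart from it unless the counting used strand, which no source used here states.

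The size of the ZNF263 difference varied with the depth of the barcodes summed. In barcodes with 10 to under 100 UMIs it was at 11.6 CPM in KO (200 UMIs) and 12.7 CPM in WT (235 UMIs), a log2 ratio of -0.12 (interval -0.40 to 0.16). With 100 to under 250 UMIs the ratio was -0.42 (interval -0.78 to -0.07), with 250 to under 500 UMIs -0.91 (interval -1.25 to -0.59) and with 500 to under 1000 UMIs -0.80 (interval -1.25 to -0.37). Over these bands and the kept barcodes, the KO level was 11.6, 9.58, 8.52, 8.56 and 7.57 CPM and the WT level 12.7, 12.8, 16.1, 14.9 and 17.8 CPM. Barcodes with under 10 UMIs held 5 ZNF263 UMIs in KO and 12 in WT, too few to place (interval of the log2 ratio -3.42 to 0.05). ZNF503, in contrast, was far below WT in every band, with log2 ratios from -2.38 with 100 to under 250 UMIs to -3.20 in the kept barcodes. The bands below 100 UMIs were not used in choosing members. What those barcodes hold, shallow cells or free RNA, was not tested.

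**Figure D1:**
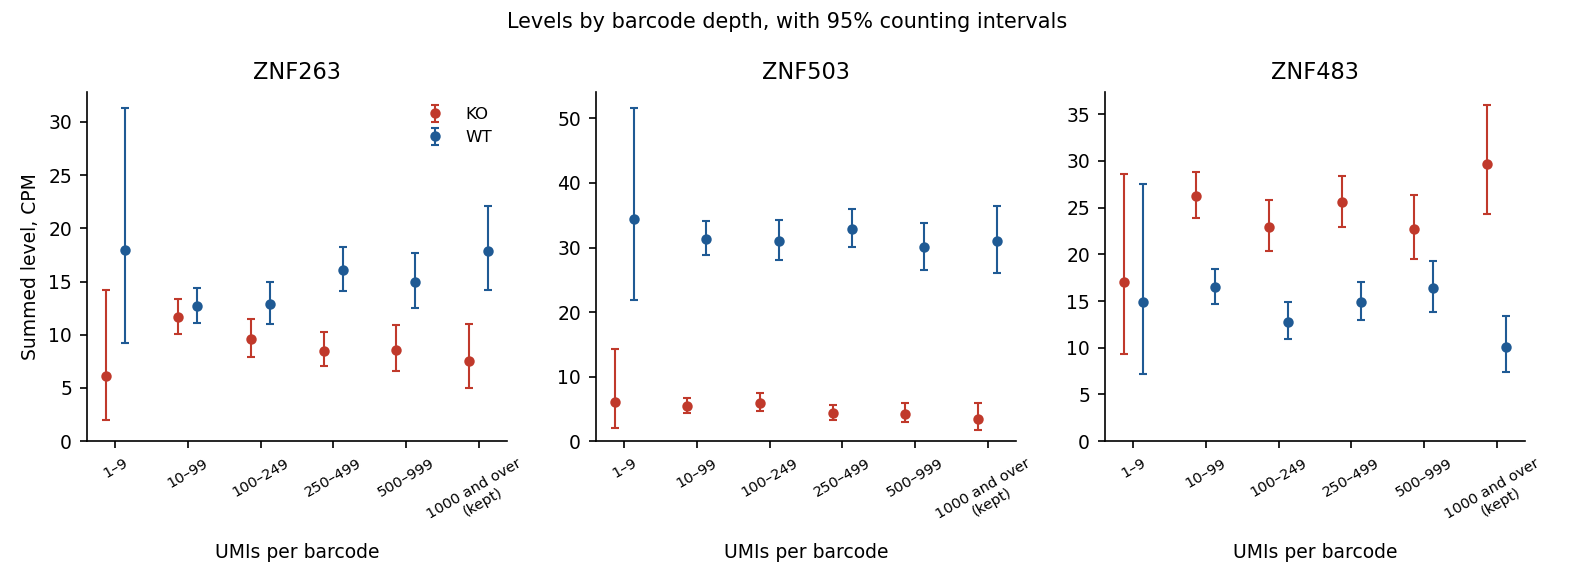
Level (CPM, y axis) of ZNF263, ZNF503 and ZNF483 in barcodes grouped by their UMIs (x axis), with KO in red left of WT in blue and bars for 95% counting intervals. ZNF263 was at 11.6 CPM in KO and 12.7 CPM in WT with 10 to under 100 UMIs per barcode, and at 7.57 and 17.8 CPM in the kept barcodes, while ZNF503 stayed far lower in KO throughout.

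The family as a whole was slightly lower in KO. Its 251 members summed to 5506 CPM in KO and 6115 CPM in WT, a log2 ratio of -0.15 (interval -0.18 to -0.13). The median member had a log2 ratio of -0.16, with quartiles of -0.38 and 0.05. All 9610 genes at or above the UMI minimum had a median of -0.14, so the median member was 0.02 below it on the log2 scale. In the shallower barcodes the medians were -0.22 for members and -0.15 for all genes. The shift of all genes exceeds 0.1 and depends on scaling, and ratios near it are not differences particular to a gene.

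Of the 251 members, 39 (15.5%) were at least 1.5-fold lower in KO, where 12.5% of all genes were, and 6 (2.39%) were at least 1.5-fold higher, where 3.41% of all genes were. Among genes with no more UMIs than the highest member, 13.4% were lower by that fold and 3.58% higher. In the shallower barcodes 31 members were at least 1.5-fold lower against 9.23% of all genes, and 4 were at least 1.5-fold higher against 2.52%. The counts lie near the background, and counting error is wide: a member's interval had a median half-width of 0.55 on the log2 scale. Of the 63 members with the fewest UMIs, 22.2% were at least 1.5-fold lower, against 24.4% of all genes in the same UMI range. For the 62 members with the most UMIs these shares were 8.06% and 5.95%. Measured from the median of all genes, 20 members were lower by that fold, where 8.03% of all genes were, and 12 were higher, where 5.84% of all genes were.

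The second count, with more UMIs, shows which of these differences recurred. Of the 39 lower members, 18 were again at least 1.5-fold lower there, 35 were below the median of all genes and 38 were below 0, as were 6690 of all 9610 genes. Of the 1204 genes lower by that fold among all genes, 644 (53.5%) were again lower by it, 1133 were below the median and 1183 below 0. Of the 6 higher members, all 6 had a ratio above 0 and 4 were again at least 1.5-fold higher. Over all genes, 311 of 328 were above 0 and 164 were again higher by that fold. Across members, the log2 ratios of the barcode sets had a Pearson correlation of 0.70 and a Spearman correlation of 0.56, over genes that share their libraries. In it the median half-width of an interval was 0.18. At least 2-fold lower were 8 members in the kept barcodes and 2, ZNF503 and ZNF521, in the shallower barcodes, with 1 and 0 members at least 2-fold higher. The shares of all genes past 2-fold are not given here, so these 2-fold counts have no background and are no result about the family.

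**Figure D2:**
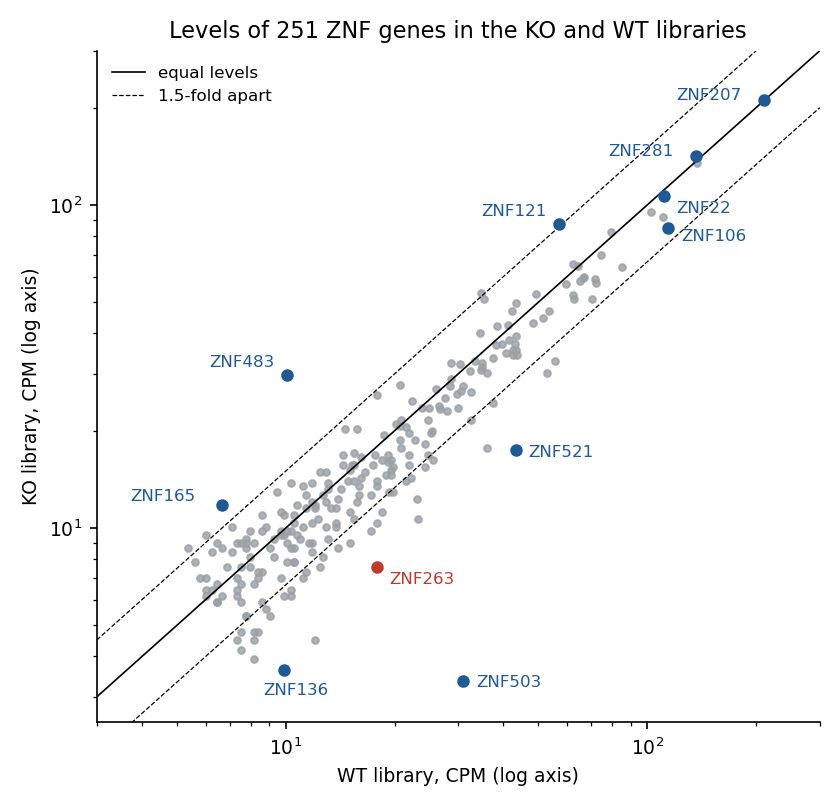
Level of each of the 251 members in the KO library (y axis) and the WT library (x axis), in CPM on log axes, with the line of equal levels and dashed lines 1.5-fold apart. ZNF503, ZNF521 and ZNF263 lie below the lower dashed line and ZNF483 and ZNF165 above the upper one, while the highest members, such as ZNF207 and ZNF281, lie on the line of equal levels.

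ZNF503, a repressor known from limb and striatal development in the mouse, had the lowest ratio of all members. It held 12 UMIs in KO and 144 in WT, or 3.36 and 31.0 CPM, a log2 ratio of -3.20 (interval -4.19 to -2.35). The shallower barcodes held 161 of its UMIs in KO and 1158 in WT, a 6.46-fold lower level. It ranked 251 of the members by level in KO and 58 in WT. The start of the antisense gene ZNF503-AS2 overlaps it in the RefSeq table. ZNF503-AS2 held 6 UMIs in KO and 9 in WT in the kept barcodes and 25 and 92 in the shallower barcodes, and ZNF503-AS1, a further antisense gene, overlaps the ZNF503 locus in GENCODE 29. The ZNF503 counts are uncertain to that extent.

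ZNF521, which promotes neural fate in mouse embryonic stem cells, was at 17.4 CPM in KO (62 UMIs) and 43.2 CPM in WT (201 UMIs). Its log2 ratio was -1.31 (interval -1.75 to -0.90) in the kept barcodes and -1.12 (interval -1.24 to -0.99) in the shallower barcodes. ZNF423, a factor of cerebellar and midline development, was at 16.3 CPM in KO and 25.6 CPM in WT, a log2 ratio of -0.66 (interval -1.13 to -0.19), and of -0.61 in the shallower barcodes. These 3 were all the measured members of a list of 6 ZNF genes of neural development. All 3 were at least 1.5-fold lower in both counts, where 12.5% and 9.23% of all genes were. The other genes of the list were below the UMI minimum. ZNF703 held 1 UMI in KO and 19 in WT, ZNF335 held 15 and 28, and ZNF536 held 0 and 3. The list median was -1.31, against -0.14 for all genes, and the list was chosen with lower neural genes already seen in these libraries. Markers of neural cells moved with this list: 4 markers summed to 205 CPM in KO and 318 CPM in WT. Most of each sum was NES, at 190 CPM in KO and 257 CPM in WT, a log2 ratio of -0.43. Of the other markers, SOX1 held 2 UMIs in KO and 29 in WT, PAX6 23 and 68 and STMN2 29 and 186. Their part in the result was not tested. UMIs were summed over barcodes here, and in such sums fewer cells with a transcript and less of it per cell cannot be told apart. The share of barcodes with each transcript was not examined.

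The other 3 of the 6 lowest members with the same direction under every scaling and barcode filter differed less in the second count. ZNF136, a KRAB protein, had 13 UMIs in KO and 46 in WT, with a log2 ratio of -1.44 (interval -2.45 to -0.53) in the kept barcodes and -0.54 in the shallower barcodes. ZNF704 had 16 UMIs in KO and 56 in WT, with ratios of -1.43 (interval -2.33 to -0.60) and -0.80. ZNF226, another KRAB protein, had 38 UMIs in KO and 108 in WT, with ratios of -1.12 (interval -1.70 to -0.58) and -0.40. Each of these 3 was less far from 0 in the second count. Among members chosen after their values were seen, ZNF618 was lower at 17.7 CPM in KO and 35.9 CPM in WT, with ratios of -1.02 and -0.75. ZNF664 was at 32.8 CPM in KO and 55.7 CPM in WT, with ratios of -0.76 and -0.77. ZNF608 was at 30.3 CPM in KO and 52.7 CPM in WT, with ratios of -0.80 and -0.67.

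At the high end, ZNF483, which carries a SCAN domain, held 106 UMIs in KO and 47 in WT, or 29.7 and 10.1 CPM. Its log2 ratio was 1.56 (interval 1.05 to 2.08), or 2.94-fold, the highest of the family. It was at 24.0 CPM in KO and 14.5 CPM in WT in the shallower barcodes, 1.65-fold higher. Its WT level in the kept barcodes, 10.1 CPM, was the lowest of its WT values over the depth bands. PTGR1, which overlaps it on the other strand, differed the other way, with a log2 ratio of -0.38 in the kept barcodes and -0.51 in the shallower barcodes.

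ZNF165, a SCAN protein known from testis, was at 11.8 CPM in KO (42 UMIs) and 6.67 CPM in WT (31 UMIs), with a log2 ratio of 0.82 (interval 0.12 to 1.54), and of 0.84 (interval 0.60 to 1.09) in the shallower barcodes. ZNF710 was at 9.53 CPM in KO and 6.02 CPM in WT, with ratios of 0.66 (interval -0.10 to 1.44) and 0.61. ZNF814 was at 53.5 CPM in KO and 34.6 CPM in WT, with ratios of 0.63 (interval 0.32 to 0.94) and 0.60. It overlaps ZNF587 on the other strand, whose own ratio was 0.01. ZNF121 and ZNF561, whose promoters are shown above, were both higher. ZNF121 was at 87.2 CPM in KO (311 UMIs) and 57.0 CPM in WT (265 UMIs), with ratios of 0.61 (interval 0.37 to 0.86) and 0.48. ZNF561 was at 51.3 CPM in KO (183 UMIs) and 35.3 CPM in WT (164 UMIs), with ratios of 0.54 (interval 0.23 to 0.85) and 0.25 (interval 0.14 to 0.36).

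**Figure D3:**
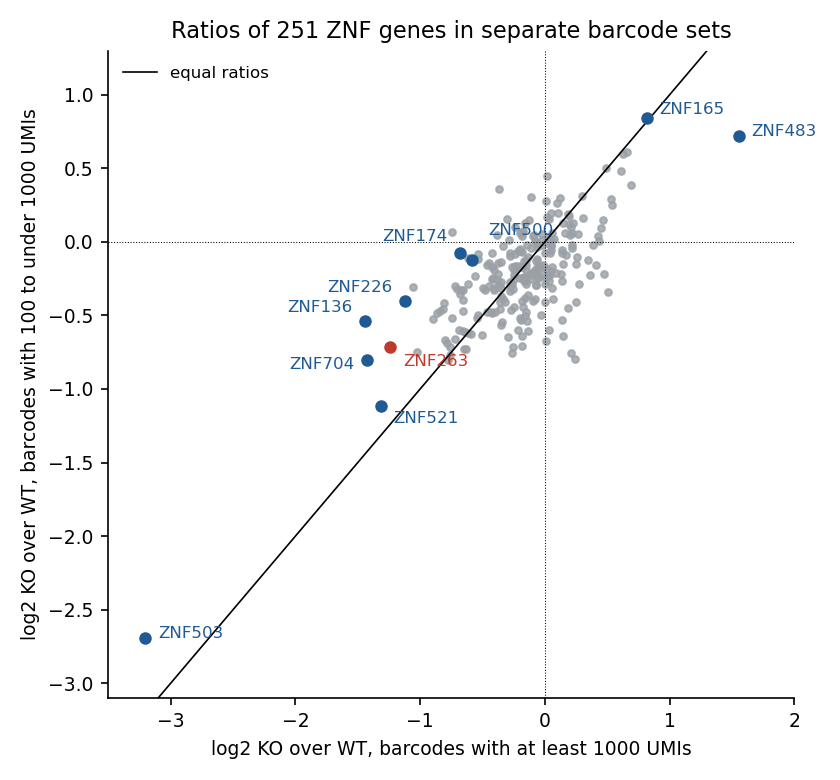
Log2 ratio of KO over WT of each member in barcodes with 100 to under 1000 UMIs (y axis) against that in barcodes with at least 1000 UMIs (x axis), with the line of equal ratios. ZNF503 is lowest in both, at -3.20 and -2.69, ZNF165 has nearly equal ratios of 0.82 and 0.84, and ZNF136, ZNF226, ZNF263 and ZNF483 lie closer to 0 on the y axis.

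The most abundant members differed little. In CPM, ZNF207, a kinetochore and spindle protein, was highest in both libraries, at 211 CPM in KO and 210.3 CPM in WT, with a log2 ratio of 0.01 (interval -0.13 to 0.14). ZNF281, a regulator of pluripotent cells, was at 142 CPM in KO and 136 CPM in WT, with a ratio of 0.06 (interval -0.11 to 0.23). ZNF326, a subunit of the DBIRD complex that links transcription and splicing, was at 135 CPM in KO and 137 CPM in WT, and ZNF22 at 107 CPM in KO and 111 CPM in WT, with ratios of -0.02 and -0.06. ZNF770 was at 94.7 CPM in KO and 103 CPM in WT, a ratio of -0.11. ZNF706 was at 82.4 CPM in KO and 79.6 CPM in WT, a ratio of 0.05, and its counts are uncertain because a near-identical copy exists. ZNF638, which silences unintegrated retroviral DNA, was at 91.9 CPM in KO and 111 CPM in WT, with a ratio of -0.27 (interval -0.47 to -0.06). ZNF106, an RNA-binding protein, was at 84.6 CPM in KO and 114 CPM in WT, with a ratio of -0.43 (interval -0.64 to -0.23), and of -0.48 in the shallower barcodes. All 8 were within 1.5-fold.

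These levels are CPM and are not divided by length. Per kilobase of the longest GENCODE transcript, the 8 highest members shared 3 genes with those 8: ZNF22 at 42.7 CPM per kb, ZNF281 at 28.5 and ZNF706 at 23.1, as means of both libraries. ZNF593 was highest on this scale, at 66.7 CPM per kb. Each captured molecule is counted by its UMI, so dividing by length favours genes with short transcripts. The scale is no ranking by number of molecules.

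Lists of genes with known roles were compared next, first in the kept barcodes. Over all genes, 12.5% were at least 1.5-fold lower there and 3.41% at least 1.5-fold higher. In lists this short, a count of 0 is near that background. All 7 genes of a list of pluripotency and early embryo factors were measured, with a median log2 ratio of 0.01 and 0 of 7 at least 1.5-fold apart. ZNF398, which maintains pluripotency and epithelial character in human stem cells, was at 32.5 CPM in KO and 28.6 CPM in WT, a ratio of 0.19 (interval -0.19 to 0.56), and of 0.19 (interval 0.06 to 0.32) in the shallower barcodes. ZNF143, an activator of many housekeeping promoters, had a ratio of -0.15, ZNF462 of -0.07 and ZNF217, a partner of the LSD1 and CoREST repressor, of -0.05.

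Of 8 genes of chromatin and transcription complexes, 7 were measured, with a median of -0.20 and 0 at least 1.5-fold apart. ZNF644, a partner of the G9a histone methyltransferase, had a ratio of -0.28 (interval -0.54 to -0.03) and ZNF148 of -0.34 (interval -0.75 to 0.06). ZNF609 was higher in the kept barcodes, at 0.22, and at -0.04 in the shallower barcodes. Of 6 genes with RNA, ribosomal or cytoplasmic roles, all 6 were measured, with a median of -0.05 and 0 at least 1.5-fold apart. ZNF593 and ZNF622, whose yeast counterparts act on the large ribosomal subunit, had ratios of 0.19 and -0.08. ZNF346, a binder of double-stranded RNA, was at -0.14, and at -0.54 (interval -0.72 to -0.35) in the shallower barcodes.

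Of 9 repressors of transposable elements or imprinted genes, 5 were measured, with a median of -0.19 and 0 at least 1.5-fold apart. ZNF91, which binds SVA elements, was at 26.1 CPM in KO and 29.7 CPM in WT, a ratio of -0.19 (interval -0.58 to 0.20). ZNF91 in the shallower barcodes was at 22.2 CPM in KO and 34.5 CPM in WT, a ratio of -0.64 (interval -0.77 to -0.50). ZNF93, which binds LINE-1 elements, had ratios of -0.10 and 0.04. ZNF445, a keeper of genomic imprints, had ratios of -0.35 (interval -0.80 to 0.09) and -0.14. ZNF649 had ratios of -0.19 and -0.07 and ZNF587, which represses HERVK elements, of 0.01 and 0.04. In the shallower barcodes ZNF91 was thus the 1 of 5 that was at least 1.5-fold lower, where 9.23% of all genes were. The other 4 genes of the list were below the UMI minimum. ZNF808 held 6 UMIs in KO and 23 in WT, with ratios of -1.56 and -0.79 in the kept and the shallower barcodes. ZNF417 held 10 and 30 UMIs, with ratios of -1.20 and -0.32, ZNF10 held 14 and 35, with ratios of -0.94 and -0.43, and ZNF382 held 13 and 12, with ratios of 0.50 and -0.32.

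The partners through which KRAB proteins repress were taken as a further list. Of 20 genes of the TRIM28 co-repressor and of the HUSH complex, which also silences transposable elements, 19 were measured, with a median log2 ratio of -0.26, against -0.14 for all genes. By 1.5-fold or more, 1 of 19 (5.26%) was lower, where 12.5% of all genes were, and 0 of 19 were higher, where 3.41% of all genes were. That gene was TASOR, a HUSH subunit, at 17.7 CPM in KO (63 UMIs) and 31.4 CPM in WT (146 UMIs), with a ratio of -0.83 (interval -1.28 to -0.39), and of -0.48 in the shallower barcodes. TRIM28 itself was at 307 CPM in KO and 345 CPM in WT, a ratio of -0.17 (interval -0.28 to -0.06). CHD4, the remodeller of the NuRD complex, was at 347 CPM in KO and 467 CPM in WT, a ratio of -0.43 (interval -0.53 to -0.33). The heterochromatin protein genes CBX1, CBX3 and CBX5 had ratios of -0.25, -0.29 and -0.31. Ratios were below 0 for 16 of the 19 genes in the kept barcodes and for 19 of 19 in the shallower barcodes, where the list median was -0.23 and that of all genes -0.15. Of all 9610 genes, 6317 and 6690 were below 0 in the kept and the shallower barcodes. Measured from the median of all genes, 14 genes of the list were below it and 5 above it in the kept barcodes, and 12 were below and 7 above in the shallower barcodes.

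On chromosome 19, where tandem duplication has placed many KRAB zinc finger genes, lay 112 members. Their median log2 ratio was -0.18, with 17 (15.2%) lower and 3 (2.68%) higher by 1.5-fold or more, shares that were 12.5% and 3.41% over all genes. The 139 members on other chromosomes had a median of -0.15, with 22 (15.8%) lower and 3 (2.16%) higher by that fold. In the shallower barcodes the medians were -0.21 and -0.22. The 535 other genes of chromosome 19 had a median of -0.07, with 8.04% lower and 5.42% higher by 1.5-fold or more.

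Runs of at least 5 ZNF genes of the RefSeq table, with starts within 500 kb of the next, made 10 clusters, numbered along the chromosome. Cluster 3, at 11.5 to 12.6 Mb, held 8 members, and all 8 had ratios below 0 in both counts, with medians of -0.36 and -0.40. Of all 9610 genes, 6317 and 6690 were below 0 in the 2 counts. Besides ZNF136, cluster 3 included ZNF44 at -0.82 and ZNF791 at -0.25 in the kept barcodes. Cluster 9, at 55.5 to 56.7 Mb, held 7 members with a median of -0.66 in the kept barcodes and -0.33 in the shallower barcodes. ZNF580 in it was at 12.3 CPM in KO and 23.01 CPM in WT, ZNF579 at 8.69 and 13.98 CPM and ZNF787 at 26.9 and 26.0 CPM. Cluster 7, at 43.5 to 44.5 Mb, which holds ZNF226, had medians of -0.28 and -0.44 over 8 members. Cluster 6, at 36.2 to 37.8 Mb, had medians of -0.38 and -0.17 over 11 members, and cluster 8, at 51.6 to 53.6 Mb, of -0.21 and -0.17 over 18. The 3 members of cluster 5 were below 0 in both counts, with medians of -0.25 and -0.25.

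Clusters 6, 7, 8 and 9 were not wholly below 0 in the kept barcodes. Above 0 there were 1 of 11, 2 of 8, 5 of 18 and 1 of 7 of their members. The other 4 clusters, too, had members on both sides of 0 in the kept barcodes or held a single member. Cluster 4, at 19.7 to 24.1 Mb, which holds ZNF91 and ZNF93, had 20 members between -0.40 and 0.19 in the kept barcodes, 0 of them at least 1.5-fold apart there, and medians of -0.06 and -0.13. Cluster 10, at 57.2 to 58.5 Mb, had 22 members with medians of 0.00 and -0.06. Of these, 2 were at least 1.5-fold higher in the kept barcodes, where 3.41% of all genes were. Cluster 2, at 8.5 to 9.8 Mb, had 7 members from -0.67 to 0.61, with ZNF121 and ZNF561 highest and ZNF846 and ZNF317 lowest. Cluster 1 held 1 member, with a ratio of 0.22 in the kept barcodes and -0.02 in the shallower barcodes. Genes of a cluster can share sequence, and how reads that match several genes were counted is not stated by any source used here.

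**Figure D4:**
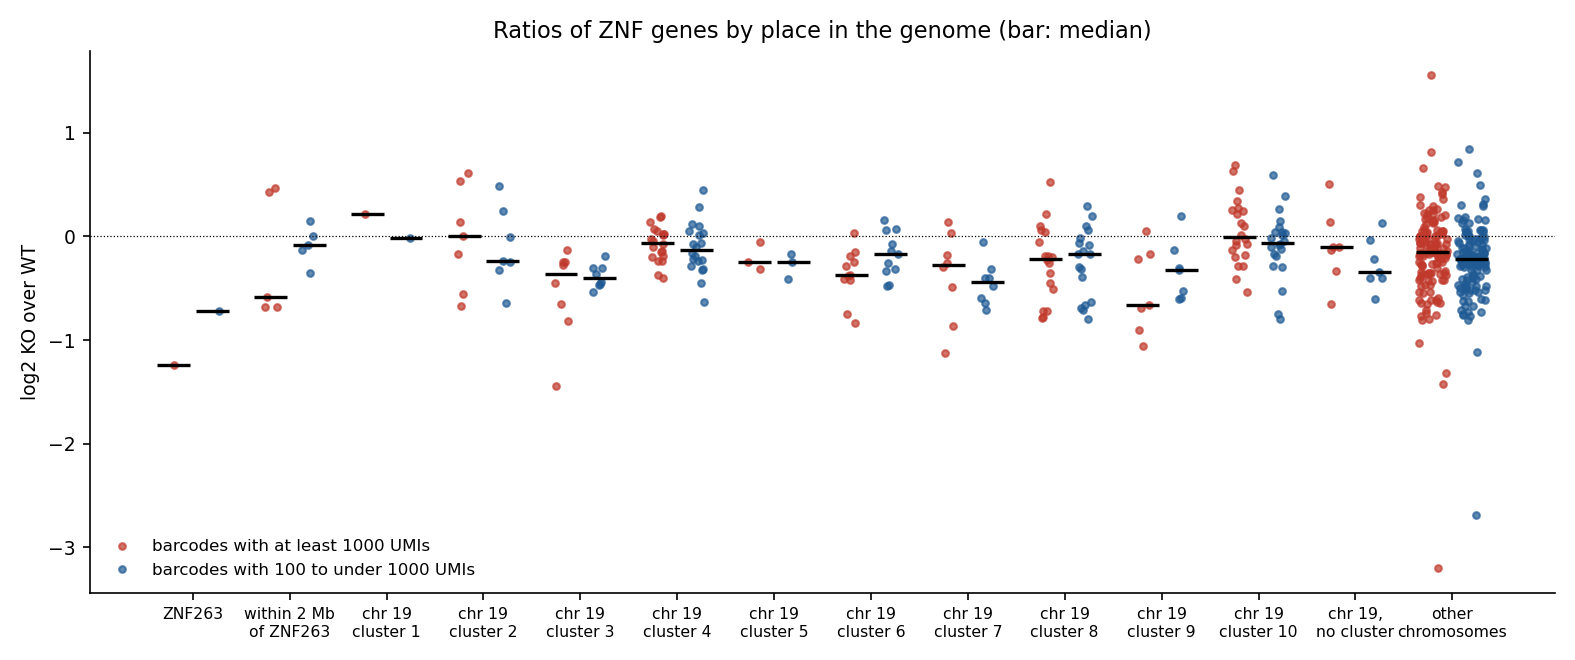
Log2 ratio of KO over WT (y axis) of members grouped by place (x axis), in barcodes with at least 1000 UMIs (red) and with 100 to under 1000 UMIs (blue), with bars for medians. Members near ZNF263 had a median of -0.59 in the kept barcodes and -0.08 in the others, and all points of cluster 3 lie below 0.

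On the short arm of chromosome 16, 5 other members lay within 2 Mb of ZNF263. ZNF174, a SCAN protein, had 22 UMIs in KO and 46 in WT, a log2 ratio of -0.68 (interval -1.49 to 0.08). ZNF200 had 23 UMIs in KO and 48 in WT, a ratio of -0.68 (interval -1.46 to 0.07), and ZNF500, another SCAN protein, 46 and 90, a ratio of -0.59 (interval -1.13 to -0.06). ZNF205 and ZNF598, a ubiquitin ligase of collided ribosomes, were on the other side, at 0.43 (interval -0.35 to 1.22) and 0.46 (interval -0.03 to 0.97). The median of the 5 was -0.59, and 3 of them were at least 1.5-fold lower, where 12.5% of all genes were.

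These neighbours were closer to 0 in the second count. Their ratios in the shallower barcodes were -0.08 for ZNF174, -0.35 for ZNF200, -0.13 for ZNF500, 0.00 for ZNF205 and 0.15 for ZNF598. The median was -0.08 and 0 of 5 were at least 1.5-fold apart. Over all genes, 9.23% were lower and 2.52% higher by that fold in those barcodes. The interval of ZNF174 there, -0.34 to 0.18, does not hold its ratio in the kept barcodes, but it overlaps the interval of that ratio given above. At a minimum of 2000 UMIs per barcode the median of the 5 was 0.15. All 18 other genes at or above the UMI minimum within 500 kb of ZNF263, members included, had a median of -0.12 in the kept barcodes. Of these, 3 were lower by 1.5-fold or more and 1 higher, where 12.5% and 3.41% of all genes were. ZNF75A, which lies next to ZNF263, had a ratio of -0.34, and the tight junction gene CLDN6 the highest, at 0.63. The 390 other genes of chromosome 16 had a median of -0.13.

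Members were also grouped by domains found as patterns in the translated coding sequences of GENCODE 29. A KRAB pattern was found in 113 members, which had a median log2 ratio of -0.18, with 14 (12.4%) lower by 1.5-fold or more and 1 (0.885%) higher. The 137 members without it had a median of -0.15, with 25 (18.2%) lower and 5 (3.65%) higher. Over all genes these shares were 12.5% and 3.41%. In the shallower barcodes the medians were -0.18 and -0.24. A wider KRAB pattern was found in 128 members, with a median of -0.17 in the kept barcodes, 15 (11.7%) lower and 3 (2.34%) higher. The 122 members without the wider pattern had a median of -0.16, with 24 (19.7%) lower and 3 (2.46%) higher. The difference in the shares that were higher thus depended on the pattern. A SCAN pattern was found in 16 members, among them ZNF263 with 9 fingers in 683 residues. Their median was -0.28 in the kept barcodes and -0.13 in the shallower barcodes, and they ran from ZNF263 at -1.24 to ZNF165 at 0.82 and ZNF483 at 1.56. ZNF287, a SCAN member chosen after its values were seen, was next to ZNF263, at 5.33 CPM in KO and 9.03 CPM in WT, with ratios of -0.76 (interval -1.63 to 0.05) and -0.71. By number of fingers, the 48 members with at least 15 had medians of -0.23 and -0.32, with 42 of 48 below 0 in the second count, as were 196 of the 251 members and 6690 of all 9610 genes. The 42 members with 0 to 4 fingers had medians of -0.12 and -0.16.

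**Figure D5:**
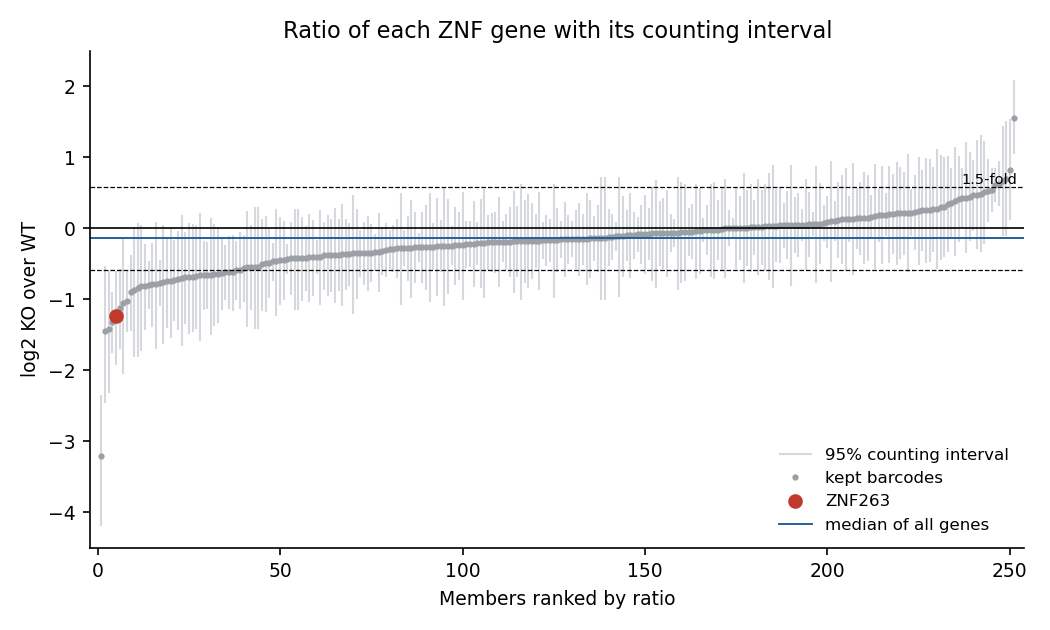
Log2 ratio of KO over WT (y axis) of the 251 members in the kept barcodes, ranked from lowest to highest (x axis), with grey lines for 95% counting intervals, ZNF263 in red, dashed lines at 1.5-fold and a blue line at the median of all genes, -0.14. Most intervals include 0, and ZNF503 at -3.20 and ZNF483 at 1.56 stand at the ends.

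For comparison, zinc finger genes with other symbols were summarised in the same way. The 23 ZBTB genes, which pair zinc fingers with a BTB domain, had a median of -0.25 in the kept barcodes and -0.29 in the shallower barcodes. The lowest of them, ZBTB16, a factor of stem and neural progenitor cells, held 15 UMIs in KO and 94 in WT, with ratios of -2.27 and -1.71. The 10 ZSCAN genes had medians of -0.09 and -0.24 and the 6 ZFP genes of -0.15 and -0.21. The 7 ZKSCAN genes had medians of opposite sign, -0.41 and 0.13.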

How the data were processed

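Single-cell RNA of H1 cells was measured in 1 KO and 1 WT library. The deposited values are raw UMI counts for each pair of gene and barcode. STAR 2.7.10a, Subread, featureCounts 2.0.1 and UMI-tools 1.1.2 were used on build hg38, per the submitters' processing notes, which assign them no order. The annotation, strand setting and any barcode filter are not given by any source here. All 45646639 entries of the KO table were read, although its header gives 45646624.

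UMIs were summed per library over barcodes that passed the limits of 1000 UMIs, 500 genes and 20% mitochondrially encoded UMIs, and scaled to CPM. Doublets were not removed. An alternative left out barcodes over 4 times the median UMI count. Levels have exact Poisson intervals and ratios exact conditional binomial intervals, both at 95% and for counting error only. A gene past 1.5-fold was counted as differing. With 1 library per genotype, no p-value was computed. The interval function was tested on simulated data.

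Places are from the RefSeq gene table (GRCh38.p14). Domains were searched by pattern in translated GENCODE 29 coding sequences, in place of the RefSeq proteins planned. A near-identical copy means at least 98% identity over at least 100 bases (BLAST+ 2.17.0). Python 3.11.15, NumPy 2.4.6, SciPy 1.17.1, pandas 2.3.3 and Biopython 1.88 were used.

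The members, lists and alternatives were chosen with earlier results of these data known. Genes were named if they were ZNF263, had the 8 highest mean levels, had the 6 highest or 6 lowest ratios among members of 1 direction in every filter and scaling, lay within 2 Mb of ZNF263 or were in a functional list. Of the measured list genes, ZNF532, ZNF592 and ZNF827 entered only the median and counts of the chromatin list, and their own values are not given. These were picked after seeing their values: the members near the minimum, those said so in the text, the cluster examples, and genes that overlap or neighbour a member.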

Additional observations from a re-analysis of the deposited data

How the results depend on the processing

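No paired analysis was possible because each genotype has 1 library. The log2 ratio of ZNF263 was -0.95 at a minimum of 500 UMIs, -0.99 at a minimum of 2000 UMIs and -0.57 over all barcodes. The median ratio of members was -0.21 over all barcodes, -0.22 in the shallower barcodes, -0.10 scaled without mitochondrially encoded and ribosomal protein genes and -0.022 scaled by the median ratio of all genes, and the summed ratio was -0.18, -0.18, -0.087 and -0.013 under the same settings. With that median scaling, the medians were -0.043 for chromosome 19 members and -0.043 for KRAB members, and at a minimum of 2000 UMIs chromosome 19 members were at -0.30. Members near ZNF263 reversed at that minimum, to a median of 0.15, and so did ZNF174, at 0.86. The number of members at least 1.5-fold lower, 39, was 22 at a minimum of 500 UMIs (9.89% of all genes), 25 over all barcodes (8.66%), 20 with median scaling (8.03%), 65 of 347 at a gene minimum of 25 UMIs (15.3%), 20 of 151 at one of 100 UMIs (9.21%) and 17 of the 103 members with no overlapping antisense gene and no near-identical copy, the last chosen after seeing the data. The number at least 1.5-fold higher, 6, was 3 (2.66%), 3 (2.41%), 12 (5.84%), 14 (4.84%), 3 (2.53%) and 2 under the same settings. For the 103 members these shares were 16.5% lower and 1.94% higher, where 12.5% and 3.41% of all genes were. The shares of all genes were not limited to genes without an overlapping antisense gene or a near-identical copy. At a minimum of 2000 UMIs, 55 were lower (18.4%) and 20 higher (6.53%), and at a mitochondrial limit of 10%, 41 (12.5%) and 10 (3.54%). The causes were not tested. Of the 251 members, 124 kept 1 direction in every filter and scaling, 99 lower and 25 higher. The same count over all genes is not given here. All genes were also shifted, with 6317 of 9610 below 0 in the kept barcodes and 6690 in the shallower barcodes, so the split is not particular to the family. Depth limits single members: 100 of them held under 100 UMIs.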

Other observations

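The difference between the libraries in ZNF263 was compared, after its depth bands were seen, with that of every other member in the same bands. Between barcodes with 10 to under 100 UMIs and barcodes with at least 250 UMIs, the log2 ratio of ZNF263 differed by 0.81, the largest difference of the 251 members. It was -0.12 in the shallow barcodes (200 UMIs in KO and 235 in WT, interval -0.40 to 0.16) and -0.93 in the deeper ones (207 UMIs in KO and 455 in WT, interval -1.17 to -0.69). The next members were ZNF579, with a difference of 0.53, and ZNF76, with 0.49, and the median over members was -0.01. The ratio's intervals in the barcode sets did not overlap for 2 of the 251 members, ZNF263 and ZNF644, at -0.06 and -0.29 (0.797%), and for 63 of all 9610 genes (0.656%). Of 30 members at least 1.5-fold apart in the deeper barcodes, 17 were at least 1.5-fold apart in the same direction in the shallow ones (56.7%), as were 858 of 1147 among all genes (74.8%). No test of a cause was made.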
